A study of Mus musculus with 6 samples.

Results

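Cytosolic ribosomal protein genes code for the protein part of the ribosomes that translate nuclear mRNAs. They were taken as the protein-coding genes whose mouse symbol is Rpl or Rps followed by a number, with a further a, x or 1 where the name has one, together with Rplp0, Rplp1, Rplp2 and Rpsa, and pseudogene symbols were left out. This gave 77 of the 55487 genes in the files: 43 of the large subunit, 31 of the small subunit and 3 of the P-stalk. They lie on 19 chromosomes, with 4 on X.

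The cells were cultured chondrocytes, the cells that make cartilage matrix, of knee cartilage from C57B/6 mice. All of them received extracellular vesicles, membrane-bound particles shed by cells, for 24 h at 10 µg of vesicle protein per ml. The M-LPS-EV group (3 libraries) received vesicles of macrophages that had been stimulated with LPS, a bacterial outer membrane component, and the M-EV group (3 libraries) received vesicles of macrophages without that stimulus. Cells given no vesicles were not analysed here, so each value compares the vesicle types. The labels give neither the age of the mice nor the source of the macrophages, and they do not say whether the libraries of a group came from separate cultures or animals. The p-values therefore measure only the spread between these libraries, which may be technical. The title of the series names the question as whether vesicles of inflammatory macrophages lead chondrocytes into pyroptosis and cartilage breakdown.

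Each ribosome holds a single copy of nearly every ribosomal protein, and cells make the subunits in the nucleolus by assembling these proteins on rRNA. Many ribosomal protein mRNAs in mammals begin with a C followed by a run of C and T bases, the 5′ terminal oligopyrimidine or TOP motif, through which mTORC1 signalling and the binding protein Larp1 control their translation. Chondrocytes secrete large amounts of collagen and proteoglycan, which ribosomes at the endoplasmic reticulum translate, and inherited defects of ribosomal proteins or of their assembly can disturb skeletal growth.

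The sequence around the transcription start, where the TOP motif would lie, was read for 57 of the 77 genes in RefSeq's promoter windows (GRCm38.p6, 250 bases before to 50 bases after each annotated start); the other 20 genes had no entry. Stretches of 60 bases, from 40 bases before the start, are printed 5′ to 3′ for 9 genes, so that genes with different results can be set beside each other: Rpl13, Rps12, Rps10 and Rpl28, which were higher with M-LPS-EV, Rpl10 and Rps2, which were lower, and Rps6, Rps18 and Rpl38, which were not called in the fit reported here. Rps10 and Rpl38 were chosen after their values were seen. Capitals mark a C followed by at least 4 C or T bases that begins within 10 bases of the annotated start.
Rpl13, chr8:123102310-123102369, plus strand: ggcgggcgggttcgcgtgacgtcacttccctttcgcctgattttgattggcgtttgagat
Rps12, chr10:23787190-23787249, minus strand: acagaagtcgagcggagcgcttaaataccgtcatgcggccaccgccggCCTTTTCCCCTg
Rps10, chr17:27635225-27635284, minus strand: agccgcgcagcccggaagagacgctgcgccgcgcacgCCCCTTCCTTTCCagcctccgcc
Rpl28, chr7:4792925-4792984, plus strand: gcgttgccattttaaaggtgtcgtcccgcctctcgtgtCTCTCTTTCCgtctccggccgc
Rpl38, chr11:114668540-114668599, plus strand: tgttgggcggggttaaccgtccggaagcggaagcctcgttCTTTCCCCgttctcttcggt
Rps6, chr4:86857348-86857407, minus strand: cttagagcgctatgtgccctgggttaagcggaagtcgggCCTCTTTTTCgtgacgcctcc
Rps18, chr17:33955646-33955705, minus strand: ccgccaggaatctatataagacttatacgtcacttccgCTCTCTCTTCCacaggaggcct
Rpl10, chrX:74270776-74270835, plus strand: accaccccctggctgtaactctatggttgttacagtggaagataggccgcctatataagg
Rps2, chr17:24720023-24720082, plus strand: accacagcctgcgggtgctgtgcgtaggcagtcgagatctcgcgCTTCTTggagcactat
Rps10, Rpl28, Rpl38, Rps6 and Rps18 have such a run at or across the annotated start, Rps12 and Rps2 have it shortly after the start, and the windows of Rpl13 and Rpl10 have none that begins within 10 bases. The Rpl13 window does hold such a run that begins just beyond this limit, before the start, so its unmarked state depends on the limit.

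Such a run at the annotated start itself was found in 13 of 67 windows of ribosomal protein genes (19.4%) and in 2.51% of 32851 windows of all genes. Within 10 bases of the start the shares were 53.7% and 30.7%, and a run of 8 or more C or T within 30 bases was in 50.7% and 22.9%. Other letters searched on both strands of the whole window were the ETS core CCGGAAG, found in 37.3% of the ribosomal protein windows and 8.86% of all windows, the GC box GGGCGG, found in 61.2% and 35.7%, and the E-box CACGTG, found in 11.9% and 7.15%. TATAAA in the 50 bases before the start, on the gene's strand, was in 0 of the 67 windows and in 2.63% of all. Of the 13 genes with the run at the start, 5 were called higher and 0 lower in the comparison described below, and their median log2 fold change was 0.053, beside 16.4% of all tested genes called higher and 15.2% lower. Of the 44 genes read without it, 15 were called higher and 2 lower, with a median of 0.042. For a run within 10 bases the medians were 0.045 with it (34 genes, 13 higher, 1 lower) and 0.042 without (23 genes, 7 higher, 1 lower). For the run of 8 or more they were also 0.045 and 0.042. For the ETS core the order was the other way, 0.041 with it (24 genes, 5 higher, 1 lower) and 0.056 without (33 genes, 15 higher, 1 lower). These medians are a description, and no test was made between the genes with and without a run or core. The annotated starts were not checked against the starts used in these cells. A gene read without the run may therefore still have a TOP mRNA. The shares over all tested genes include genes of lower level than any member.

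The libraries held 20239626 to 23539911 expected counts in the M-LPS-EV group and 22274687 to 25712667 in the M-EV group, and a ribosomal protein gene had 3890 to 56688 counts in a library. Chondrocyte markers were abundant in both groups, with 7.63% to 7.80% of the counts on Col2a1, the main cartilage collagen, in M-LPS-EV libraries and 8.48% to 8.61% in M-EV libraries. The 12 chondrocyte markers summed to 118110 to 120653 CPM (counts scaled to a common library total) in M-LPS-EV libraries and 141842 to 142891 CPM in M-EV libraries, and 11 of them were lower and 0 higher with M-LPS-EV (edgeR, adjusted p under 0.05; 1 higher at an unadjusted p under 0.05, 0 by DESeq2). Of 12 macrophage markers 8 were tested and 4 were higher, with a summed level of 33.1 to 37.9 CPM in M-LPS-EV libraries and 24.3 to 26.5 CPM in M-EV libraries; Aif1 had 0 counts in 2 libraries of each group. Fibroblast markers summed to 2216 to 2256 CPM in M-LPS-EV libraries and 2184 to 2200 CPM in M-EV libraries, with 2 of 9 tested genes higher and 4 lower. Endothelial markers summed to 1.91 to 3.00 CPM in M-LPS-EV libraries and 2.22 to 2.79 CPM in M-EV libraries, and 0 of 2 tested genes were called (edgeR; 0 at an unadjusted p under 0.05, 0 by DESeq2). The part of these markers in the values below was not tested.

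Ribosomal protein mRNAs took up a slightly larger part of the RNA in cells given M-LPS-EV. They held 5.03%, 5.13% and 5.07% of the expected counts in the M-LPS-EV libraries (mean 5.08% ± 0.051 SD, n = 3), against 4.84%, 4.88% and 4.87% in the M-EV libraries (4.86% ± 0.017, n = 3). The M-LPS-EV libraries all lay above the M-EV libraries, and the mean was 4.34% higher relative to M-EV. Per transcript length the members held 17.2%, 17.4% and 17.3% of all TPM (length-corrected abundance on a common total) in M-LPS-EV libraries (17.3% ± 0.10), against 16.96%, 16.98% and 17.01% in M-EV libraries (16.98% ± 0.025), a relative difference of 1.88%. The groups again did not overlap, and the difference was smaller on the TPM scale. Without M-LPS-EV replicate 2, the highest library on both scales, the M-LPS-EV means were 5.05% of counts and 17.2% of TPM, and the relative differences 3.78% and 1.55%. In bulk RNA, fewer cells of a type and less RNA per cell cannot be told apart, and both shares also move with the share held by Col2a1, which was lower with M-LPS-EV.

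**Figure D1:**
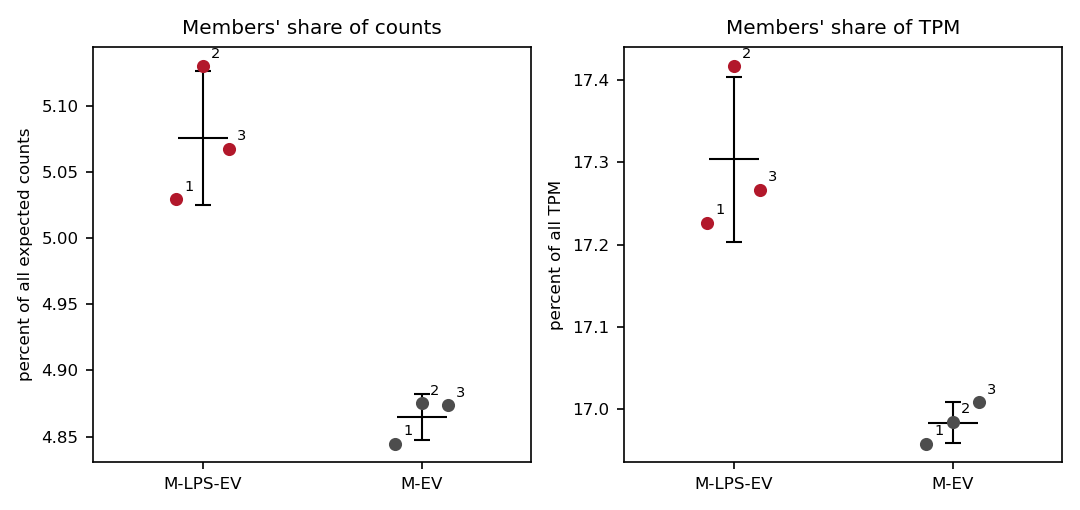
Share of all expected counts (left) and of all TPM (right), in percent, held by the 77 ribosomal protein genes; each point is a library with its replicate number, and bars give the mean ± SD of 3 libraries. The axes do not start at 0. M-LPS-EV libraries sit at 5.03% to 5.13% of counts, above the M-EV libraries at 4.84% to 4.88%.

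Of the M-LPS-EV libraries, replicate 2 stood highest. It held the highest CPM of the 6 libraries for 46 of the 77 genes, against 4 and 17 in M-LPS-EV replicates 1 and 3 and 1 to 7 in the M-EV libraries. The same library also had a shorter gap between transcript length and RSEM's effective length, a quantity that follows the mean fragment length, with 198.5 bases against 203.5 and 203.6 bases in the other M-LPS-EV libraries and 201.3 to 204.0 bases in the M-EV libraries. Counts of calls, the shares above and several named members whose highest library it was are given with and without it.

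Expression was high for every member. All 77 were among the 200 genes with the highest mean TPM, and 54 were among the first 100. Mean TPM over the 6 libraries ran from 930 for Rpl14 to 5674 for Rplp1, a 6.10-fold span, with a median of 2011. Within a group the libraries were close, with a coefficient of variation whose median over the genes was 1.66% (0.471% to 3.60%).

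Rplp1, a small acidic protein of the P-stalk that recruits translation factors to the ribosome, had 5634, 5865 and 5626 TPM in M-LPS-EV libraries, against 5699.8, 5605 and 5612 TPM in M-EV libraries, and the groups overlapped. Rpl13a, which in interferon-treated human monocytes leaves the ribosome to silence inflammatory mRNAs, had 5201, 5214 and 5335 TPM in M-LPS-EV libraries, against 5353, 5159 and 5366 TPM in M-EV libraries. Rpl41, among the smallest of all proteins, had 5007, 5060.1 and 5064 TPM in M-LPS-EV libraries, against 5039, 4840.1 and 4935 TPM in M-EV libraries. Rps24 (4451 mean TPM), Rps12 (4213 mean TPM) and Rps2 (4095 mean TPM) came next on this scale. Of the 76 pairs of neighbours in the order of mean TPM, 69 overlapped over the 6 libraries. Rpl13a and Rpl41 were apart, since the lowest Rpl13a library (5159 TPM) was above the highest Rpl41 library (5064 TPM). The lowest levels were those of Rpl14 (942.4, 929.0 and 914.0 TPM in M-LPS-EV libraries, against 896.2, 958.0 and 941.4 TPM in M-EV libraries), Rpl39, a small protein at the exit tunnel (mean 1053 TPM), Rpl21 (1114 TPM), Rpl22, needed for T cell development in mice (1199 TPM), and Rpl27a (1225 TPM).

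**Figure D2:**
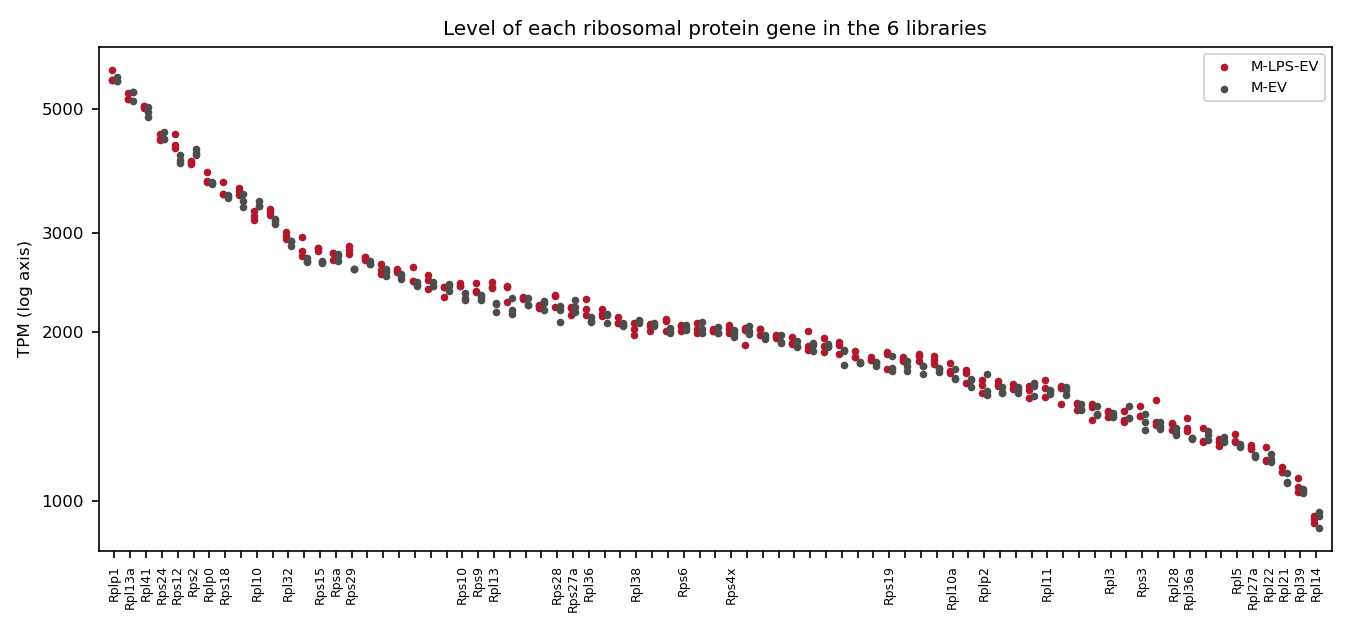
TPM (log axis) of each of the 77 genes in every library, ordered by mean TPM, with M-LPS-EV points left of M-EV points and labels for genes named in the text. The span between genes (930 to 5674 mean TPM) is far wider than the span between libraries of a gene.

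Most members differed little between the groups, and most of the small differences were towards higher values with M-LPS-EV. In a fit over all 14604 tested genes (edgeR quasi-likelihood test, TMM scaling, Benjamini-Hochberg adjusted p under 0.05), 31 of the 77 were called higher, 2 lower and 44 in neither direction; all 77 passed the filter on low counts. Over all tested genes 31.6% were called, 16.4% higher and 15.2% lower. Among the members 42.9% were called, 40.3% higher and 2.60% lower. The level of expression bears on this reading: of the 738 genes with a mean CPM at least as high as the lowest member, 66.8% were called. Of the members 70 had a positive log2 fold change. The median was 0.045, or 1.03-fold (3.14% higher), against 0.0028 over all tested genes and -0.013 over the 738 genes of like level.

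The range of the members' log2 fold changes was -0.062 to 0.14, or 0.958-fold to 1.10-fold, with SE of 0.016 to 0.031. Log2 fold changes of 74 members were within 0.1 of 0, and 52.0% of all tested genes lay within the largest change of any member. Against a threshold of 1.2-fold in place of no change, 0 of the 77 were called (edgeR glmTreat; also 0 at an unadjusted p under 0.05), where 7.79% of all tested genes were. In CPM, all M-LPS-EV libraries lay above all M-EV libraries for 41 members and below them for 2, and the groups overlapped for 34, beside 21.6% of all tested genes above and 20.6% below. Of the 41 genes, 12 were not called, and 2 called genes (Rps28 and Rplp2) had overlapping groups. In TPM 27 members lay above, 3 below (Rpl38, Rps2 and Rpl10) and 47 overlapped, beside 16.9% of all tested genes above and 19% below.

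**Figure D3:**
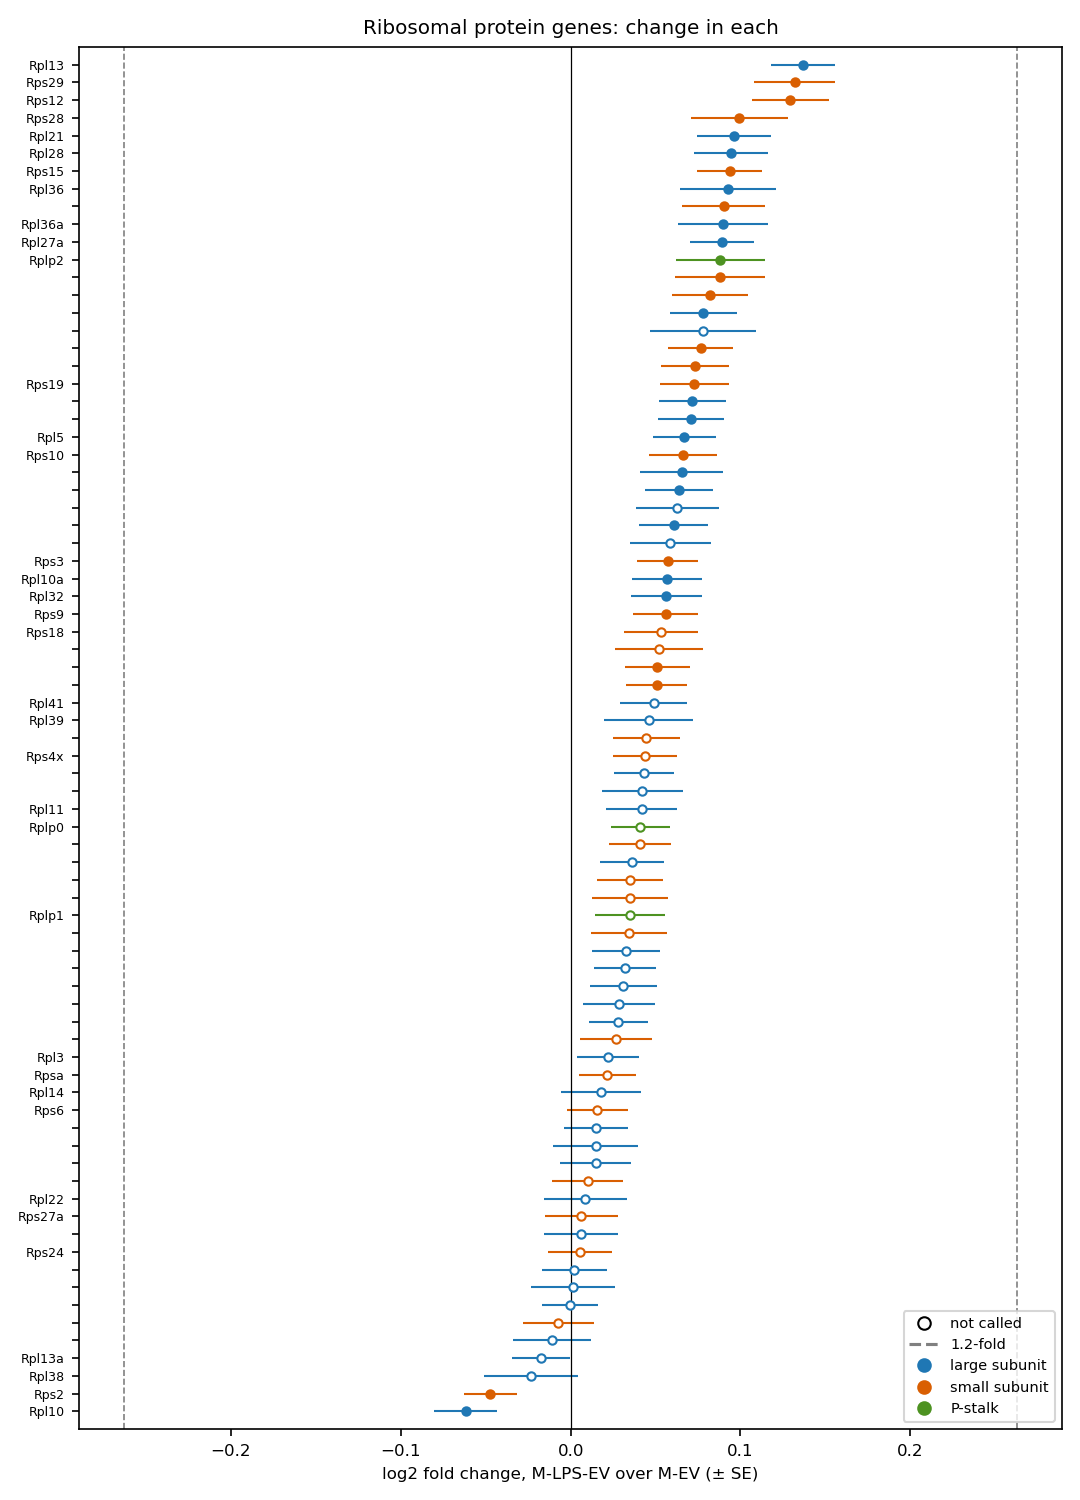
Log2 fold change of CPM, M-LPS-EV over M-EV, with its standard error for each of the 77 genes (n = 3 libraries a group); filled points were called by edgeR, open points were not, colours give the subunit, dashed lines mark 1.2-fold, and genes named in the text are labelled. All points lie between -0.062 (Rpl10) and 0.14 (Rpl13), inside the dashed lines.

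The number of calls differed with the fit and with the libraries in it. A length offset and TPM values both bring transcript length into the fit, but the TPM fit also has another model, scaling and filter. Which of these moved the calls was not tested. With each library's effective lengths as an offset, 8 members were called higher and 0 lower (edgeR; 30 higher and 2 lower at an unadjusted p under 0.05), beside 10.5% of all tested genes called higher; all 8 were among the 31. On log2(TPM + 1) with limma-trend 6 were called higher, all among the 31, and 2 lower, beside 8.9% of all genes called higher. The members' share called higher was then 10.4% and 7.79%, close to that over all genes. The medians were 0.042 with the offset and 0.027 on the TPM scale, where 60 members were positive. Without M-LPS-EV replicate 2, 19 members (24.7%) were called higher and 2 lower, with a median of 0.035, beside 14.3% of all tested genes called higher. Leaving out any of the M-EV libraries lowered the count about as much, to 21 higher (27.3%) each time, beside 14.2% to 14.4% of all genes. Without M-LPS-EV replicate 1 or 3 the count was 35 and 38. Without M-LPS-EV replicate 2 and with the length offset, 6 members (7.79%) were called higher and 1 lower, close to the 8.25% of all genes called higher.

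**Figure D4:**
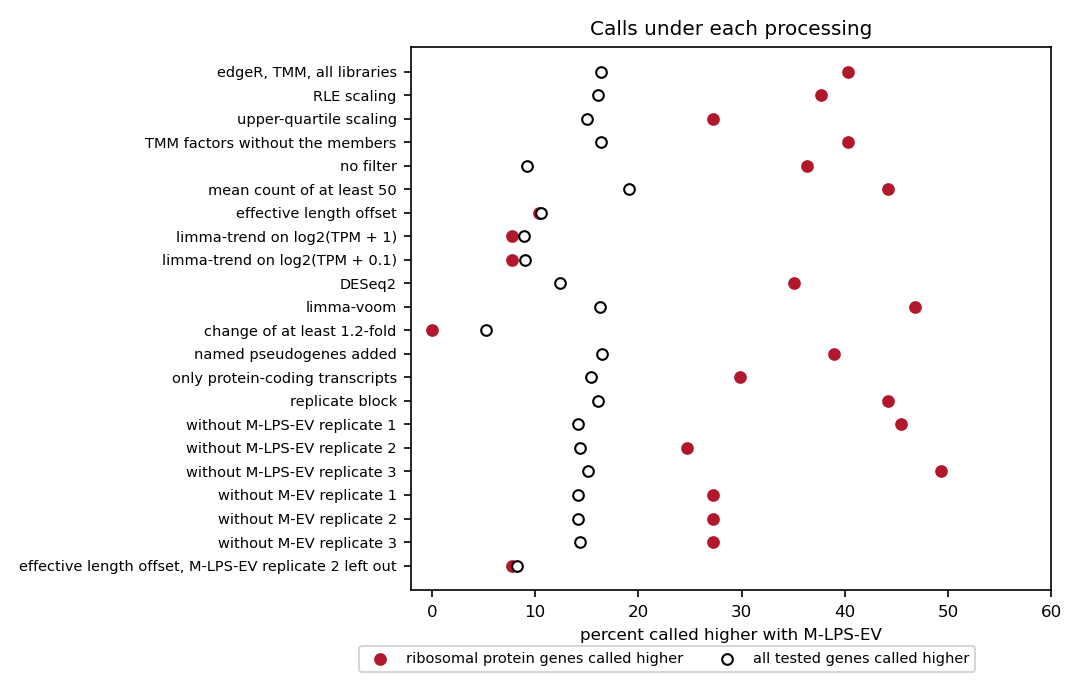
Percent of the 77 ribosomal protein genes (filled) and of all tested genes (open) called higher with M-LPS-EV under each processing, run down the page from the fit reported here. Filled points lie right of open points under TMM scaling (31 of 77 members), and beside or left of them with length offsets, on TPM values and against a 1.2-fold threshold.

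Large-subunit genes numbered 15 called higher, 1 lower and 27 not called, and their log2 fold changes had a median of 0.042. Small-subunit genes numbered 15 higher, 1 lower and 15 not called, with a median of 0.051, and in the P-stalk 1 of 3 was higher. The shares called higher were 34.9% of the large and 48.4% of the small subunit, beside 16.4% of all tested genes, and the shares called lower 2.33% and 3.23%, beside 15.2%. The shares over all tested genes include genes of lower level than any member. Of the 738 genes with a mean CPM at least as high as the lowest member, 66.8% were called, in either direction. The difference between the subunits was not tested. The summed TPM of the large subunit over that of the small subunit was 1.165 ± 0.0054 in M-LPS-EV libraries and 1.176 ± 0.0033 in M-EV libraries (SD, n = 3 each), a relative difference of -0.921%. The lowest M-EV ratio (1.173) was above the highest M-LPS-EV ratio (1.171, replicate 2).

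Rpl13, a large-subunit protein whose human gene is mutated in a skeletal dysplasia, had the largest increase. It had 808.5, 811.7 and 826.4 CPM in M-LPS-EV libraries, against 746.3, 726.8 and 751.9 CPM in M-EV libraries, with no overlap, and a log2 fold change of 0.14 ± 0.019 as its SE (edgeR, adjusted p = 2.71e-06). The gene (chr8:123102350-123105244, plus strand, GRCm38) was called under all 20 alternatives that tested a change from 0, as were Rps29, Rps12 and Rps15 and no other member.

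Rps29, a zinc-binding protein of the small subunit (chr12:69157722-69159186, minus strand), had 297.7, 315.9 and 304.6 CPM in M-LPS-EV libraries, against 278.8, 279.1 and 280.4 CPM in M-EV libraries. Each M-LPS-EV library lay above every M-EV library, and the log2 fold change was 0.13 ± 0.024 (edgeR adjusted p = 9.12e-05), or 0.11 without M-LPS-EV replicate 2, its highest library. Rps12, a small-subunit protein that in Drosophila takes part in the competition between cells with different ribosomal protein gene doses, had 900.7, 974.4 and 919.4 CPM in M-LPS-EV libraries, against 842.0, 847.6 and 865.6 CPM in M-EV libraries. It rose by 0.13 ± 0.023 on the log2 scale (edgeR adjusted p = 6.62e-05), and M-LPS-EV replicate 2 was its highest library, without which the log2 fold change was 0.10 (edgeR adjusted p = 0.000225). The gene (chr10:23785183-23787275, minus strand) holds 3 annotated snoRNAs and the run of C and T bases shown above shortly after its start.

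Rps15 (chr10:80292453-80294114, plus strand), whose tail reaches the decoding centre of the small subunit, had 486.4, 490.9 and 487.9 CPM in M-LPS-EV libraries, against 458.0, 456.1 and 459.2 CPM in M-EV libraries. The libraries of a group were within 5 CPM of each other and the groups were apart, with a log2 fold change of 0.094 ± 0.019 (edgeR adjusted p = 0.00044).

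The other members among the 8 highest log2 fold changes lost their call under some settings. Rps28 of the small subunit had 232.5, 249.9 and 244.9 CPM in M-LPS-EV libraries, against 227.6, 217.7 and 233.6 CPM in M-EV libraries, and the groups overlapped at the edge (log2 fold change 0.10, edgeR adjusted p = 0.00913). Rpl21 of the large subunit had 573.0, 599.5 and 583.9 CPM in M-LPS-EV libraries, against 536.5, 562.5 and 544.4 CPM in M-EV libraries, without overlap (log2 fold change 0.10, edgeR adjusted p = 0.00113). Rpl28, a large-subunit protein that budding yeast lacks, had 408.1, 409.9 and 414.7 CPM in M-LPS-EV libraries, against 393.0, 375.0 and 386.3 CPM in M-EV libraries, also without overlap (log2 fold change 0.094, edgeR adjusted p = 0.00128). Rpl36 had 229.1, 245.1 and 224.1 CPM in M-LPS-EV libraries, against 215.8, 217.4 and 222.0 CPM in M-EV libraries, where M-LPS-EV replicate 3 and M-EV replicate 3 nearly met (log2 fold change 0.093, edgeR adjusted p = 0.0139). With the length offset these 4 were not called (edgeR adjusted p = 0.0807 for Rps28, 0.0723 for Rpl21, 0.173 for Rpl28 and 0.0753 for Rpl36). Rps28 was also not called without M-LPS-EV replicate 2 or M-EV replicate 2, and Rpl36 not without M-LPS-EV replicate 2 (log2 fold change 0.054), M-EV replicate 1 or M-EV replicate 2.

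Both genes called lower are highly expressed. Rpl10, which joins the large subunit late in its assembly and is mutated in human leukaemia, had 1021, 1054 and 1015 CPM in M-LPS-EV libraries, against 1064, 1091 and 1071 CPM in M-EV libraries. The highest M-LPS-EV library (replicate 2) was just below the lowest M-EV library, and the log2 fold change was -0.062 ± 0.019 (edgeR adjusted p = 0.0125). Rps2, which lines the mRNA entry channel of the small subunit, had 1819, 1810.2 and 1812 CPM in M-LPS-EV libraries, against 1889.8, 1877 and 1856 CPM in M-EV libraries, with no overlap. Its log2 fold change was -0.047 ± 0.016 (edgeR adjusted p = 0.0242). Rpl10 lies at chrX:74270812-74273135, plus strand, and Rps2 at chr17:24718116-24721929, plus strand. With the length offset the adjusted p was 0.0914 for Rpl10 and 0.0597 for Rps2 (edgeR), and on log2(TPM + 1) it was 0.0428 and 0.0206 (limma-trend). Rpl10 was also not called without M-LPS-EV replicate 1 or M-EV replicate 2, and Rps2 not without M-EV replicate 1 or M-EV replicate 2.

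Among the smallest increases that passed the threshold were those of Rps9 (log2 fold change 0.056, edgeR adjusted p = 0.0279), Rpl32 (0.056, edgeR adjusted p = 0.0421) and Rpl10a (0.057, edgeR adjusted p = 0.0363). All are structural proteins of their subunits, and all M-LPS-EV libraries lay above all M-EV libraries in each. None of these 3 was called with the length offset, and of the 20 alternatives they were called in 7 (Rpl32) to 10 (Rps9). Without M-LPS-EV replicate 2 the log2 fold change of Rpl32 was 0.037 (edgeR adjusted p = 0.177). Rps10, whose sequence is shown above, had 482.3, 483.8 and 475.1 CPM in M-LPS-EV libraries, against 462.3, 453.2 and 461.0 CPM in M-EV libraries, without overlap (log2 fold change 0.066, edgeR adjusted p = 0.0119, and 0.0158 with the length offset).

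P-stalk genes carry the elongation factor binding site. Rplp2, which pairs with Rplp1, had 348.8, 377.6 and 364.0 CPM in M-LPS-EV libraries, against 333.0, 351.6 and 341.7 CPM in M-EV libraries, so the groups overlapped; it was called with a log2 fold change of 0.088 ± 0.026 (edgeR adjusted p = 0.011). With the length offset its log2 fold change was 0.021 (edgeR adjusted p = 0.753), and it was not called without M-LPS-EV replicate 2 or M-EV replicate 1. Rplp0, the base of the stalk and a common reference gene in quantitative PCR, had 2268, 2367 and 2256 CPM in M-LPS-EV libraries, against 2224, 2240.1 and 2234 CPM in M-EV libraries. All M-LPS-EV libraries were above, but the gene was not called (log2 fold change 0.041, edgeR adjusted p = 0.0792). It was called higher in 2 of the 20 alternatives, limma-voom and without M-LPS-EV replicate 3, and its log2 fold change without M-LPS-EV replicate 2 was 0.019 (edgeR adjusted p = 0.358). For Rplp1 the log2 fold change was 0.035 (edgeR adjusted p = 0.22), and 0.0065 without M-LPS-EV replicate 2.

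Other ribosomal protein genes used as references for normalising RNA were not called either in the fit over all libraries. Rpl13a had 1245, 1235 and 1264 CPM in M-LPS-EV libraries, against 1262, 1256 and 1271 CPM in M-EV libraries (log2 fold change -0.017, edgeR adjusted p = 0.493), and the groups overlapped. Rps18 had 725.3, 774.5 and 726.8 CPM in M-LPS-EV libraries, against 714.6, 719.3 and 712.7 CPM in M-EV libraries, so all M-LPS-EV libraries were above, replicate 2 by the most (log2 fold change 0.053, edgeR adjusted p = 0.0684). The groups were apart in TPM too. Rps18 was called higher in 3 of the 20 alternatives, with the replicate block and without M-LPS-EV replicate 1 or 3, while without M-LPS-EV replicate 2 its log2 fold change was 0.022 (edgeR adjusted p = 0.418). The estimates for these reference genes were between -0.017 and 0.053 on the log2 scale, with SE of 0.017 to 0.022.

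Members with known roles outside the ribosome or in disease gave a mixed picture. Rpl5 and Rpl11, which with 5S rRNA bind Mdm2 and so stabilise p53 when assembly fails, had log2 fold changes of 0.067 (edgeR adjusted p = 0.00679) and 0.042 (edgeR adjusted p = 0.135). Rpl5 had 809.9, 830.7 and 837.4 CPM in M-LPS-EV libraries, against 784.8, 789.0 and 792.1 CPM in M-EV libraries. Rpl11 had 487.1, 488.6 and 508.1 CPM in M-LPS-EV libraries, against 483.4, 480.5 and 477.2 CPM in M-EV libraries. For both genes the groups were apart in CPM, and only Rpl5 passed the threshold; with the length offset the adjusted p of Rpl5 was 0.091 (edgeR). Rps3, also described as a DNA repair protein and as a partner of NF-κB, had 819.5, 810.2 and 829.3 CPM in M-LPS-EV libraries, against 784.0, 790.0 and 789.5 CPM in M-EV libraries, without overlap (log2 fold change 0.057, edgeR adjusted p = 0.0164; 0.111 with the length offset, and no call without M-EV replicate 1 or M-EV replicate 3). Rps19, the gene most often mutated in Diamond-Blackfan anaemia, had 443.9, 442.3 and 440.5 CPM in M-LPS-EV libraries, against 416.9, 428.0 and 416.6 CPM in M-EV libraries, again without overlap (log2 fold change 0.073, edgeR adjusted p = 0.00694; 0.286 with the offset, and no call without M-EV replicate 3).

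Most other named members were not called. Rps6, the substrate of S6 kinase downstream of mTORC1, had 799.3, 790.3 and 805.2 CPM in M-LPS-EV libraries, against 780.4, 791.0 and 797.5 CPM in M-EV libraries, with overlap and a log2 fold change of 0.016 (edgeR adjusted p = 0.567). Rps27a, made as a fusion with ubiquitin, had a log2 fold change of 0.0063 (edgeR adjusted p = 0.866). Rpl3, next to the peptidyl transferase centre, had 0.022 (edgeR adjusted p = 0.399), and Rpsa, known also as the laminin receptor, had 0.021 (edgeR adjusted p = 0.371). X-linked Rps4x had 902.6, 892.8 and 873.7 CPM in M-LPS-EV libraries, against 848.6, 877.3 and 863.6 CPM in M-EV libraries, with overlap (log2 fold change 0.044, edgeR adjusted p = 0.084). Rpl38, named above for its sequence and known in mice for its part in translating Hox mRNAs, had 195.0, 205.6 and 190.5 CPM in M-LPS-EV libraries, against 200.2, 198.8 and 202.2 CPM in M-EV libraries (log2 fold change -0.023, edgeR adjusted p = 0.575). Its libraries overlapped in CPM. Rpl27a, among the lowest in TPM, had 616.7, 625.6 and 628.2 CPM in M-LPS-EV libraries, against 584.4, 587.2 and 586.9 CPM in M-EV libraries, and was called with a log2 fold change of 0.089 ± 0.019 (edgeR adjusted p = 0.00053, 0.0376 with the length offset). Rpl41 (0.049), Rpl39 (0.046), Rpl14 (0.018), Rpl22 (0.0087) and Rps24 (0.0054), all log2 fold changes, were not called.

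Across the 77 genes the log2 fold change had a Spearman correlation of -0.24 with effective length and -0.074 with mean TPM, as a description over genes that share the same 6 libraries. The 38 shorter genes had a median of 0.055 with 16 called higher and 0 lower, and the 39 longer genes a median of 0.041 with 15 higher and 2 lower, or 42.1% and 38.5% called higher beside 16.4% of all tested genes. The members are short, with a median effective length of 462 bases, against 2261 over all tested genes. Within their bounds and on the same strand, 30 members hold 58 annotated snoRNAs or related scaRNAs, small RNAs that guide RNA modification. Whether they lie in introns was not checked. Of these hosts 15 were called higher and 2 lower, with a median log2 fold change of 0.048, and of the 47 other members 16 and 0, with a median of 0.043. The shares called higher were 15 of 30 and 16 of 47 (34.0%), beside 16.4% of all tested genes. Called lower were 6.67% of the hosts, 0% of the other members, 0% of the shorter and 5.13% of the longer genes, beside 15.2%. Here too the shares over all tested genes include genes of lower level than any member. No difference between these sets was tested.

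Transcripts of any annotated type other than protein-coding held 9.96% ± 0.084 of the members' counts in M-LPS-EV libraries and 10.1% ± 0.12 in M-EV libraries (SD, n = 3 each). They include retained introns, processed transcripts and transcripts marked for nonsense-mediated decay, which do hold a coding sequence. In 4 members these types held more than 50% of the gene's counts, among them Rpsa, whose main transcript of these types is marked for nonsense-mediated decay. The difference between groups ran from -2.75 to 1.68 percentage points over the members. Of 473 transcripts of these genes 150 held at least 5% of their gene's abundance. The groups' means for these transcripts differed by at most 3.90 percentage points, with a median size of 0.683. In Rps12, ENSMUST00000220070 held 19.5% ± 1.00 in M-LPS-EV libraries and 23.4% ± 2.63 in M-EV libraries, and the groups overlapped. In Rpl28, ENSMUST00000032597 held 33.4% ± 0.87 in M-LPS-EV libraries and 30.1% ± 0.64 in M-EV libraries.

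Processed pseudogenes can take reads of ribosomal protein genes. Of the genes in the files, 297 are pseudogenes named after 59 of the members, and together they held 0.0617% ± 0.0010 of the counts in M-LPS-EV libraries and 0.0586% ± 0.00084 in M-EV libraries. For 8 members the named pseudogenes had over 5% of the member's own counts, at most 9.23% for Rpl36a. The values of those members (among the other genes named here Rpl14, Rpl3, Rps6 and Rpl10a) are less certain. Only symbols made of a member's name and -ps were counted. Pseudogenes under other names were not, so other members may share reads too. With the pseudogene counts added to their members, 30 members were called higher and 2 lower.

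Genes next to the ribosomal proteins in function were counted list by list, and no list was tested as a set. A list of 12 paralogs and fusion genes also holds the scaffold gene Rack1 and Rps4l, which is annotated as a transcribed processed pseudogene. Of the 12 genes 10 were tested, 2 rose (20%) and 0 fell, beside 16.4% higher and 15.2% lower over all tested genes. At an unadjusted p under 0.05 in edgeR 0 were lower, and 0 by DESeq2. The median on the log2 scale was 0.023. Fau, which codes for a ubiquitin-like protein fused to the small-subunit protein eS30, had 371.8, 378.9 and 365.9 CPM in M-LPS-EV libraries, against 326.9, 325.3 and 341.8 CPM in M-EV libraries, a log2 fold change of 0.17 ± 0.023 (edgeR adjusted p = 2.47e-06). The groups did not overlap, and the symbol is not covered by the naming rule of the members. In this list, log2 fold changes of genes not called were 0.094 for Rps27rt, 0.06 for Rpl7l1, 0.023 for Rps4l, 0.022 for Rpl39l, 0.014 for Rpl36al, 0.0041 for Rack1, a scaffold on the small subunit, -0.031 for Rpl22l1 and -0.033 for Rps27l. Rpl3l had 1 count in 1 library and Rpl10l had 0 in all libraries.

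A list of 19 genes taken as having TOP mRNAs, most of them translation factors, split, with 5 called higher and 4 lower. The shares were 26.3% and 21.1%, beside 16.4% and 15.2% of all tested genes, and the median log2 fold change was 0.0075. Hnrnpa1, which is no translation factor, was among those called higher (log2 fold change 0.067). The motif was not reported gene by gene for this list. On the log2 scale Eif3h of initiation factor 3 rose by 0.21 (edgeR adjusted p = 9.39e-07), the poly(A) binding protein gene Pabpc1 by 0.13 (edgeR adjusted p = 1.98e-06) and elongation factor Eef2 by 0.084 (edgeR adjusted p = 9.83e-05). Btf3, a subunit of the nascent chain complex, fell, with a log2 fold change of -0.11 (edgeR adjusted p = 0.00114). Of 26 other initiation factors 1 rose (3.85%) and 7 fell (26.9%), with a median of -0.035. Eif6, which keeps free large subunits apart from small ones, had 91.1, 94.7 and 88.4 CPM in M-LPS-EV libraries, against 80.5, 74.4 and 80.8 CPM in M-EV libraries (log2 fold change 0.22, edgeR adjusted p = 7.36e-05), without overlap. Eif2s2, Eif4a2 and Eif3g fell, with log2 fold changes of -0.14, -0.14 and -0.15. With the length offset, 3 of these initiation factors were called lower, and of the 19 genes of the TOP list 3 higher and 2 lower.

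Ribosome biogenesis factors, which process rRNA and assemble subunits, numbered 65, all tested; 33 fell and 0 rose (edgeR; 39 lower and 2 higher at an unadjusted p under 0.05, and 27 lower and 0 higher by DESeq2), beside 15.2% lower and 16.4% higher among all tested genes. Their median log2 fold change was -0.099. Ltv1, which helps to mature the small subunit, had 111.2, 108.1 and 108.7 CPM in M-LPS-EV libraries, against 125.6, 130.1 and 134.7 CPM in M-EV libraries, a log2 fold change of -0.25 ± 0.032 (edgeR adjusted p = 7.74e-07). Ddx56, a nucleolar RNA helicase, had 43.4, 41.9 and 44.5 CPM in M-LPS-EV libraries, against 51.8, 52.9 and 54.8 CPM in M-EV libraries (-0.30 ± 0.041 on the log2 scale, edgeR adjusted p = 2.45e-06). In both genes all M-LPS-EV libraries were below all M-EV libraries, and the same held for Ebna1bp2 (log2 fold change -0.23) and Nop10 (log2 fold change -0.24), a core protein of H/ACA snoRNPs. The count called lower was 12 with the length offset, 12 on log2(TPM + 1) and 10 with the offset and without M-LPS-EV replicate 2. While the ribosomal protein genes had a small positive median, the factors that build them into subunits had a negative one; the difference between the lists was not tested.

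**Figure D5:**
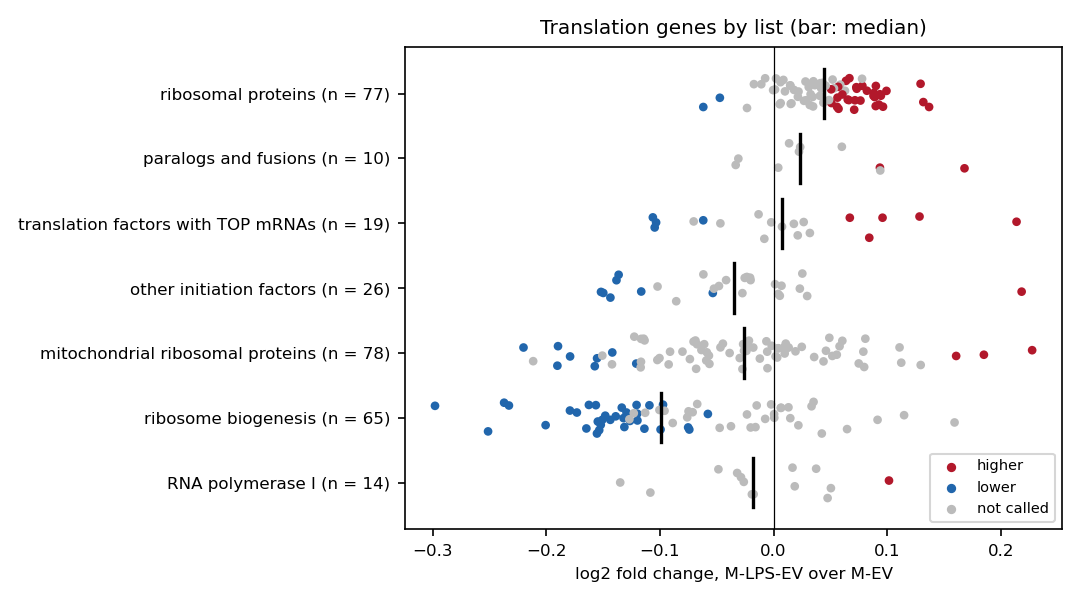
Log2 fold change, M-LPS-EV over M-EV, of each tested gene in 7 lists of translation genes, with list sizes; colours give the edgeR call and black bars the median. The 77 ribosomal protein genes lie close together around 0.045, and 33 of 65 ribosome biogenesis factors were called lower.

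Of 14 RNA polymerase I genes 0 fell (edgeR; 0 at an unadjusted p under 0.05, 0 by DESeq2) and 1 rose, Ubtf (log2 fold change 0.10, edgeR adjusted p = 0.00797), an rDNA transcription factor; it was not called with the length offset or without M-EV replicate 2. Twistnb (-0.11), Polr1e (-0.13) and Polr1d (0.038) were not called, and the list's median was -0.018. Its share called higher was 7.14%, beside 16.4% of all tested genes. Mitochondrial ribosomal proteins, which share no subunit with the cytosolic ribosome, numbered 78, with a median of -0.026. Of them 3 rose (3.85%) and 8 fell (10.3%), both below the 16.4% and 15.2% of all tested genes. DESeq2 called 4 lower, and upper-quartile scaling gave 13 lower. By their log2 fold changes Mrpl45 (0.23) and Mrpl33 (0.19) rose and Mrps18b (-0.19) and Mrpl24 (-0.18) fell. Among 11 snoRNA host genes 1 rose (9.09%, beside 16.4% of all tested genes), the ribosomal protein gene Rps12 described above. In this list 0 fell (edgeR, with 0 lower at an unadjusted p under 0.05 and 0 by DESeq2). The list also holds Rpl13a, and of its 9 hosts that are no ribosomal protein gene 0 were called (edgeR; 1 at an unadjusted p under 0.05, 0 by DESeq2), with a median of -0.013.

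Of 15 tested genes (of 17) in the control of TOR signalling and Myc, 1 rose (6.67%) and 3 fell (20%), beside 16.4% and 15.2% of all tested genes. Without M-EV replicate 1, 1 fell. Ddit4, an inhibitor of mTORC1 that stress induces, had 150.4, 142.6 and 148.6 CPM in M-LPS-EV libraries, against 107.4, 105.6 and 106.5 CPM in M-EV libraries, a log2 fold change of 0.47 ± 0.03 (edgeR adjusted p = 4.12e-12). Deptor, an inhibitor bound to mTOR, had 102.3, 103.0 and 103.1 CPM in M-LPS-EV libraries, against 121.0, 124.3 and 128.7 CPM in M-EV libraries, a log2 fold change of -0.28 ± 0.032 (edgeR adjusted p = 1.31e-07). Neither gene overlapped between groups. Larp1, which binds TOP mRNAs, had 236.4, 242.5 and 245.6 CPM in M-LPS-EV libraries, against 258.5, 250.7 and 252.9 CPM in M-EV libraries (log2 fold change -0.073, edgeR adjusted p = 0.0209), a call lost with the length offset and without M-LPS-EV replicate 1, M-EV replicate 1 or M-EV replicate 3. Akt1s1 had a log2 fold change of -0.089 (edgeR adjusted p = 0.0383) and lost the call without M-LPS-EV replicate 2 (log2 fold change -0.055) or 3 or M-EV replicate 1 or 2. Myc, a transcription factor that drives ribosomal protein genes, had a log2 fold change of 0.084 (edgeR adjusted p = 0.066) and was not called.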

How the data were processed

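RNA of 6 libraries (3 M-LPS-EV, 3 M-EV; groups and replicate numbers from the titles) was sequenced from stranded mRNA libraries, per the labels' protocols. The submitters' processing notes name STAR, RSEM, DESeq2 and mm10. Their versions, settings and annotation were not given in the sources used here. The authors deposited, per transcript, an expected count, which RSEM estimates and need not be whole, a TPM scaled by effective length, and the percent of the gene's abundance (IsoPct), with transcript lengths, per the file headers. RSEM shares reads that fit several transcripts or pseudogenes, and that uncertainty is not modelled here.

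Symbols, gene types and coordinates came from GENCODE M21 (GRCm38), which holds 99.14% of the 142699 transcripts. Expected counts were summed per gene and rounded. Low genes were removed by filterByExpr (minimum count 10, minimum total 15). The other genes were scaled by TMM and tested two-sided with edgeR 4.0.16 (glmQLFit, glmQLFTest; R 4.3.3), with group as the only term and Benjamini-Hochberg adjustment over 14604 genes; a call is an adjusted p under 0.05. CPM use TMM-scaled library sizes, fold changes divide M-LPS-EV by M-EV, and SD is over 3 libraries. The fit was also run on simulated counts whose spread was estimated from these data. The outcome is not reported here and is not used for the calls.

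The members and the gene lists were chosen with earlier results of these data known, so list counts are descriptions. Named were the 8 highest and 8 lowest called members by log2 fold change, the 5 highest and 5 lowest by TPM, 16 members whatever their values, the paralogs, and up to 4 genes with the smallest p of each other list. Some genes that this rule takes are not reported here. Alternatives were other scalings and filters, effective-length offsets, limma-trend on log2(TPM + 1) and log2(TPM + 0.1), limma-voom (limma 3.58.1), DESeq2 1.42.0, a 1.2-fold threshold, pseudogene counts added, protein-coding transcripts only, the replicate number as a block and each library left out. The offset without M-LPS-EV replicate 2, and the members' share with each library left out, were chosen after seeing the data. Libraries of a group differed beyond sampling noise (chi-square per degree of freedom 1.68 to 2.68; 24.3 to 30.8 between groups), so none was taken for a repeat deposit of another; this comparison does not tell separate cultures from repeat preparations of one RNA.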

Additional observations from a re-analysis of the deposited data

How the results depend on the processing

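Of 33 members called, 8 were called with effective length offsets (8 higher, 0 lower), 8 on log2(TPM + 1) and 8 on log2(TPM + 0.1) (6 higher in both), 7 with the offset and without M-LPS-EV replicate 2 (6 higher, 1 lower), and 0 against a 1.2-fold change (0 higher, 0 lower). With each library left out in turn the calls over all 77 members were 21 to 40, with 19 to 38 higher and 0 to 2 lower. These include members outside the 33. Without M-LPS-EV replicate 3, 30 of the 38 called higher were among the 31 called higher with all libraries. The cause of these shifts was not tested. The median log2 fold change was 0.031 with upper-quartile scaling, 0.027 on both TPM scales and 0.035 to 0.052 with a library left out, and the share of members was 4.34% higher by counts (3.78% to 4.81% with a library left out) and 1.88% higher by TPM. Genes of the related lists numbered 68 called, 33 with the offset, 34 and 35 on the TPM scales, 25 with the offset and without M-LPS-EV replicate 2, 1 against 1.2-fold, and 53 to 63 with a library left out. All 33 called members kept their sign in the 20 alternatives that test a change from 0.

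Of 1530 values for 37 named members and 36 related genes, 1284 kept direction and call, 186 lost a call, 13 gained one and 47 changed sign; none of the genes that changed sign was called. Reversed log2 fold changes with the offset were 0.0026 for Rpl13a, -0.0068 for Rps27a, -0.0009 for Rack1 and -0.063 for Rpl7l1. With upper-quartile scaling they were -0.0052 for Rpl22, -0.0084 for Rps24, -0.0075 for Rps27a, -0.0097 for Rack1 and -0.0002 for Rpl36al, and without a filter -0.0007 for Rps24 and -0.0019 for Rack1. On log2(TPM + 1) they were -0.0048 for Rpl14, -0.0064 for Rps24, -0.021 for Rps27a, -0.0157 for Rack1, -0.0018 for Rpl36al and -0.0766 for Rpl7l1, and on log2(TPM + 0.1) -0.0048 for Rpl14, -0.0064 for Rps24, -0.021 for Rps27a, -0.0157 for Rack1, -0.0018 for Rpl36al and -0.0772 for Rpl7l1. With the offset and without M-LPS-EV replicate 2 they were 0.0064 for Rpl13a, -0.0144 for Rps27a, -0.0296 for Rack1, 0.0183 for Rpl22l1, -0.0158 for Rpl36al, -0.0111 for Rpl39l and -0.108 for Rpl7l1. With each library left out in turn, values ran from -0.012 to 0.0394 for Rpl14, -0.0103 to 0.0211 for Rpl22, -0.0049 to 0.0196 for Rps24, -0.0156 to 0.0267 for Rps27a, -0.0114 to 0.0229 for Rack1, -0.0543 to 0.0102 for Rpl22l1, -0.0201 to 0.0392 for Rpl36al, -0.0553 to 0.0013 for Rpl38 and -0.06 to 0.0811 for Rpl39l.

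The labels do not say whether replicate numbers pair the samples. Deviations from the group means had correlations of 0.028, -0.044 and -0.019 between same-numbered libraries, and -0.039 to 0.06 between differently numbered ones. Such values, taken over all tested genes in groups of 3 libraries, cannot exclude a shared batch or animal. With the replicate number as a block 34 members were called higher and 2 lower, with a median log2 fold change of 0.045.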
